A study of Rattus norvegicus with 8 samples.

Results

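The HOX genes are the 39 rows of the gene expression table named Hoxa, Hoxb, Hoxc or Hoxd with a paralogue number, out of 31699 rows in all, chosen by a rule on the name that uses no measured value. They were compared in cultured rat annulus fibrosus cells (AFCs), the fibroblast-like cells of the outer ring of the intervertebral disc, between a control group of 4 samples (Lv-Ctrl) and a group of 4 named Lv-Piezo1. All 8 samples came from Sprague Dawley rats with no engineered allele named, and all had been put under mechanical stretch, which the study's text gives as cyclic stretch at 0.5 Hz for 36 h, at 20% elongation in the experiments that followed a trial of several levels. Lv-Ctrl cells had received the control lentiviral vector pLVX-shRNA-Puro. Lv-Piezo1 cells had received pLVX-shRNA-Puro-Piezo1, with a short hairpin RNA against Piezo1, a stretch-gated cation channel. Both were used at a multiplicity of infection of 20 for 24 h. The age of the animals at isolation and unstretched samples were not analysed here. Each isolation pooled the annulus tissue of 8 rats, so a sample is a culture and not an animal, and which isolation gave which sample is not named in the labels. The study counts the experiments on an isolation as an independent repeat and gives 4 repeats under either treatment. The samples may thus be matched by isolation, for which the main comparison held no term. P-values therefore measure the spread between these cultures.

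HOX genes encode homeodomain transcription factors that lie in clusters in paralogue order. During development the genes at one end (low numbers) are expressed in anterior parts of the body axis and those at the other end (high numbers) in the lumbar, sacral and tail regions, and adult fibroblasts and skeletal cells keep much of the combination of the place they came from. Polycomb complexes keep silent HOX genes closed, Trithorax complexes keep active ones open, retinoic acid activates mainly the low-numbered genes, and PBX, MEIS and PKNOX proteins bind DNA together with HOX proteins.

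RefSeq promoter sequences (assembly GRCr8) were matched for 20 of the 39 genes. The 250 bases before the annotated start are shown for Hoxd13 and Hoxd8, which were lower in the samples labelled Lv-Piezo1, and for Hoxa11, which was higher, as examples of genes that moved in opposite directions. Capitals mark CpG, a dinucleotide that is dense in many promoters that Polycomb complexes bind. The Hoxd13 window is chr3:79977827-79978076 on the plus strand, the Hoxd8 window chr3:80014973-80015222 on the plus strand and the Hoxa11 window chr4:82676802-82677051 on the minus strand.
Hoxd13: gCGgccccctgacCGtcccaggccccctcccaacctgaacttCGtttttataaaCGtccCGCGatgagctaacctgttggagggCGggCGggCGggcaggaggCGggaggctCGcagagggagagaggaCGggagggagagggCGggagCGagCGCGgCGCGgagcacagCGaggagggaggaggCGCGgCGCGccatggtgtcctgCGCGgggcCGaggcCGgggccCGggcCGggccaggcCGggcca
Hoxd8: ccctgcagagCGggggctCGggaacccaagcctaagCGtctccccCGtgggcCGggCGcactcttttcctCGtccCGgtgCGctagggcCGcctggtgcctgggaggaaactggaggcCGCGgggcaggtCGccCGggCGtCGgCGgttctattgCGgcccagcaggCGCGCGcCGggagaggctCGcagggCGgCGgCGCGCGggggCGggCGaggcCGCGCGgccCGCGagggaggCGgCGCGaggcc
Hoxa11: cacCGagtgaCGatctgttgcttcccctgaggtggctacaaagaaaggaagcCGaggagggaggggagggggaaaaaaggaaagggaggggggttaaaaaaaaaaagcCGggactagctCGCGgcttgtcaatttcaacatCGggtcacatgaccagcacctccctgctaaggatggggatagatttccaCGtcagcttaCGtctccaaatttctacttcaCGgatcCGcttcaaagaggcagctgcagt

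The Hoxd13 window held 30 CpG, a count reached by 5.35% of the 33469 promoter windows of the table, the Hoxd8 window 38 (1.69%) and the Hoxa11 window 11 (33.6%). The median was 20 over the 21 HOX windows, which ranged from 3 to 39, and 5 over all windows. Hoxa13, whose transcript did not pass the test, had the highest count at 39. Of other genes that rose, Hoxa4 held 32 CpG, Hoxa7 28, Hoxa9 18 and Hoxa10 14 and 21 in separate windows. The printed windows therefore do not stand for all genes that rose or fell, and a link of CpG count to direction was not tested. The letters TATAAA, read on both strands, were found in the windows of 3 HOX genes (Hoxd13, Hoxa9 and Hoxa10) and in 12.9% of all windows. These are descriptions of sequence, and none of the windows is a measured binding site.

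The targeted gene was read first. Piezo1 was at 31.1, 33.0, 26.7 and 29.5 TPM (a share of all transcripts, corrected for gene length) in the Lv-Ctrl samples and at 38.1, 37.7, 40.2 and 41.4 TPM in the Lv-Piezo1 samples. Every Lv-Piezo1 value lay above every Lv-Ctrl value (log2 fold change 0.38, SE 0.06, limma adjusted p = 8.6e-04). The transcript therefore went against the label of a knockdown, and Lv-Piezo1 below is the label of the group, not a loss of Piezo1 RNA measured in these samples. The study reports in its supplement that the knockdown by this vector was verified, and those data were not examined here. Fold changes below are Lv-Piezo1 against Lv-Ctrl on the log2(TPM + 1) scale, which understates the change of low genes. In bulk samples, fewer cells that express a gene and less RNA of it per cell cannot be told apart.

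Before the comparison, the levels in Lv-Ctrl show which HOX genes these cells used. Of the 39 genes, 36 were above 0 in every sample, 33 had a mean of at least 1 TPM over the 8 samples, 13 of at least 10 TPM and 5 of at least 20 TPM. Paralogues 9 to 13 carried 72.2% ± 0.196 (SD, n = 4) of the summed HOX TPM in Lv-Ctrl, and the order of levels was led by Hoxa10 (53.1 ± 1.80 TPM), Hoxc12 (40.6 ± 3.27), Hoxb9 (36.5 ± 2.96), Hoxa11 (26.4 ± 1.87), Hoxc11 (24.4 ± 1.93) and Hoxb13 (23.0 ± 1.63). Hoxc12 and Hoxb9 differed by about their spread, as did Hoxa11 and Hoxc11, and Hoxc11 and Hoxb13. Every Hoxa11 value in Lv-Ctrl lay above every Hoxb13 value. In the Hoxc cluster each gene was above the one before it from Hoxc8 (1.02 TPM in Lv-Ctrl) through Hoxc9 (6.92), Hoxc10 (17.0) and Hoxc11 to Hoxc12, while Hoxc13 was at 11.5 TPM. In the Hoxd cluster the highest levels were in the middle, at Hoxd9 (12.9 TPM), Hoxd8 (9.74) and Hoxd10 (9.59).

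The 6 genes under 1 TPM were not tested. Hoxb1, a hindbrain gene, was listed at 0 in all 8 samples, and Hoxd1 in 7 of them, with 0.04 TPM in the other. Hoxd12 had group means of 0.0775 and 0.193 TPM, Hoxd3 0.260 and 0.188 TPM, Hoxc5 0.390 and 0.547 TPM and Hoxa6 0.695 and 0.847 TPM, with overlapping groups for each. Hoxa4 (0.708 ± 0.248 against 1.34 ± 0.290 TPM) passed the minimum only through its level in the samples labelled Lv-Piezo1.

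**Figure D1:**
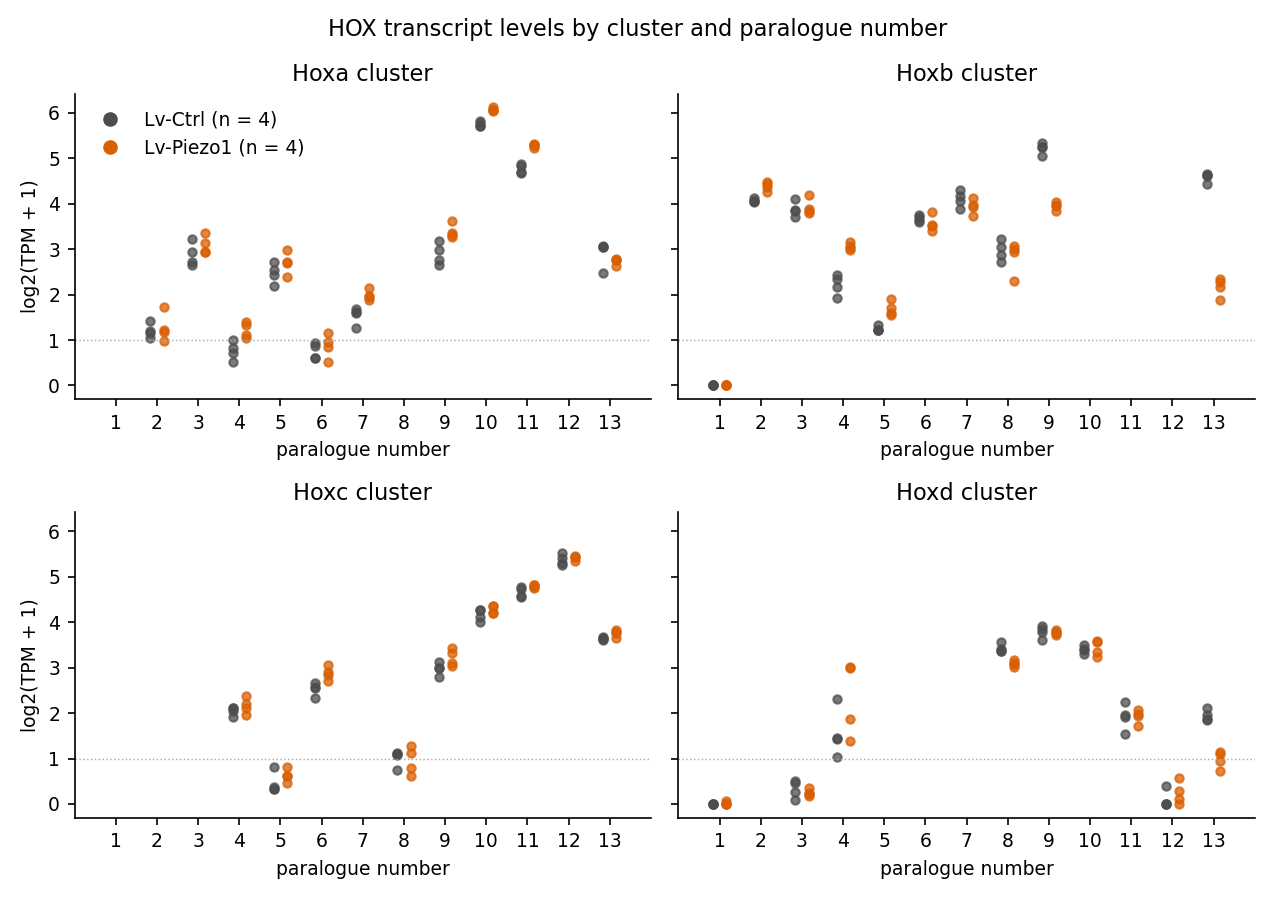
Each point is 1 sample, with log2(TPM + 1) on the vertical axis against paralogue number on the horizontal axis, for the HOX genes reported here in the 4 clusters. Lv-Ctrl is grey and Lv-Piezo1 orange, the dotted line marks 1 TPM, and the orange points part downward from the grey ones at Hoxb9, Hoxb13 and Hoxd13 while Hoxc9 to Hoxc13 stay close.

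Hoxb13 and Hoxb9, the genes of the Hoxb cluster with the highest numbers and adjacent to each other among its HOX genes, fell in the samples labelled Lv-Piezo1, and were the only 2 of the 33 tested HOX genes called, meaning an adjusted p below 0.05 together with a log2 fold change of 1 or more in size. That is 6.06% of the HOX genes, against 7.67% of all 13103 genes tested (1005 genes, with 2.76% lower), so the number of calls was near the background. Hoxb13, the terminal gene of its cluster, which is active in the tail bud and later in prostate and distal gut, was at 24.3, 23.8, 23.4 and 20.7 TPM in Lv-Ctrl and at 3.46, 2.68, 4.10 and 3.88 TPM in Lv-Piezo1. The lowest Lv-Ctrl sample was thus far above the highest Lv-Piezo1 sample, and the means, 23.0 ± 1.63 and 3.53 ± 0.626 TPM (SD, n = 4), differed 6.53-fold (log2 fold change -2.42, SE 0.10, limma adjusted p = 1.4e-07). Hoxb9, a gene of the thoracic and lumbar levels, was at 39.5, 36.8, 37.2 and 32.4 TPM in Lv-Ctrl and at 14.8, 14.4, 15.4 and 13.3 TPM in Lv-Piezo1. Its groups did not overlap either, with a 2.53-fold lower mean (36.5 ± 2.96 against 14.4 ± 0.884 TPM, log2 fold change -1.28, SE 0.07, limma adjusted p = 5.1e-07). In the order of HOX levels Hoxb9 went from place 3 to the level of Hoxb7 and Hoxb3 (14.4 ± 1.75 and 14.3 ± 2.03 TPM), from which it did not differ beyond their spread, and Hoxb13 from place 6 to place 24.

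The genes did not fall in proportion. Hoxb13 was 0.632 ± 0.0131 of Hoxb9 in Lv-Ctrl, a ratio that lay between 0.615 and 0.646 in the 4 samples, and 0.245 ± 0.0458 in Lv-Piezo1. For both genes an exact permutation test (two-sided, 70 possible assignments of the samples) gave p = 0.029, the smallest it can give.

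**Figure D2:**
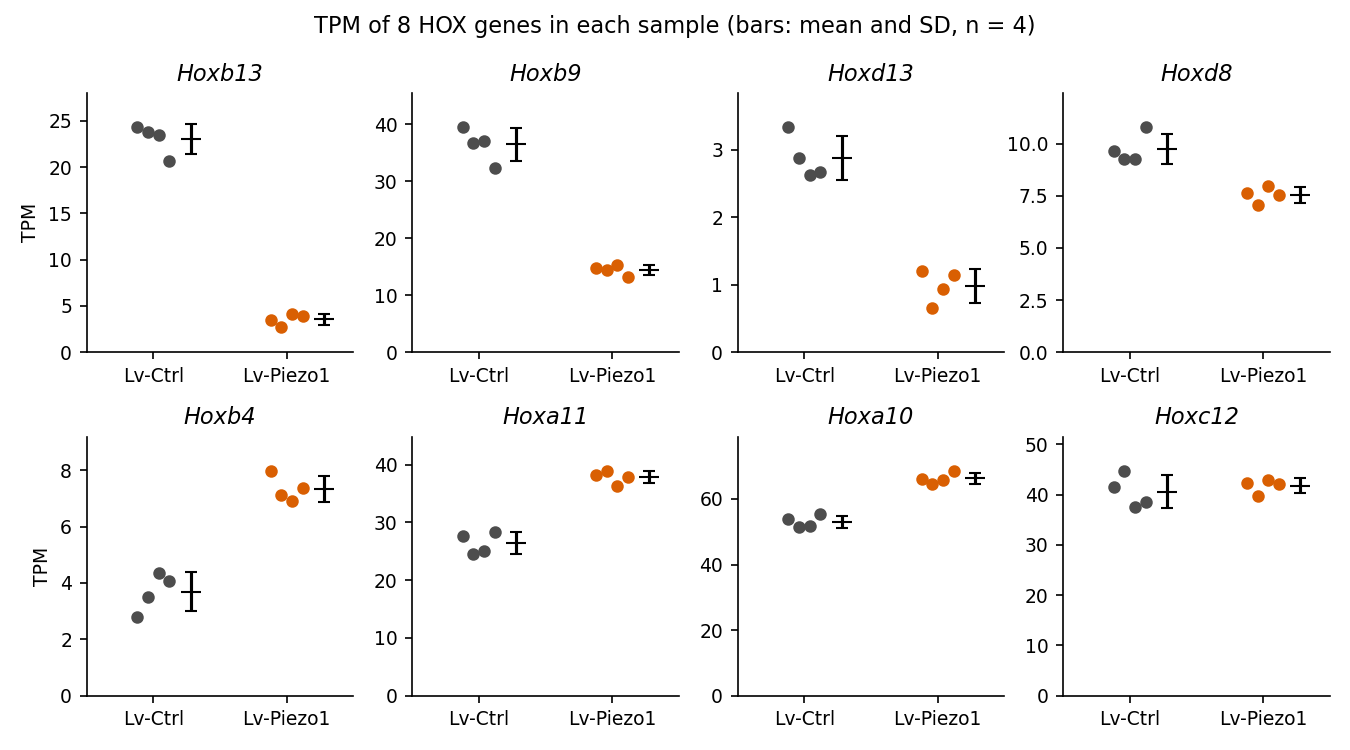
TPM (vertical axes from 0) of 8 HOX genes in each of the 4 Lv-Ctrl (grey) and 4 Lv-Piezo1 (orange) samples, with the mean and SD as a bar beside the points. Hoxb13, Hoxb9, Hoxd13 and Hoxd8 sit lower in Lv-Piezo1, Hoxb4, Hoxa11 and Hoxa10 higher, and the Hoxc12 groups overlap.

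At an adjusted p below 0.05 without a fold threshold, 14 of the 33 tested HOX genes passed (42.4%), against 58.2% of all genes tested. Of these, 10 were higher (30.3%, against 41.9% of all genes) and 4 lower (12.1%, against 16.3%). The same numbers, 10 and 4, had groups that did not overlap in TPM (42.4%), against 54.2% of all genes, 39.8% higher and 14.5% lower. The median log2 fold change was 0.11 over the tested HOX genes and 0.14 over all genes tested. The share of HOX genes that passed was thus below that of all genes in either direction.

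In the Hoxa cluster 6 of 10 tested genes rose (60.0%, against 41.9% of all genes) and none fell (16.3% of all genes), with Hoxa4 among the 6 and tested only through its Lv-Piezo1 level. Hoxa10, a gene of the lumbar level and of the uterus, was the most abundant HOX gene in both groups, at 53.8, 51.5, 51.8 and 55.3 TPM in Lv-Ctrl and 66.1, 64.7, 65.7 and 68.6 TPM in Lv-Piezo1. These groups were well apart for a small difference (log2 fold change 0.31, SE 0.04, limma adjusted p = 7.8e-05). Hoxa11, which patterns sacral vertebrae, forearm and kidney, had the largest rise of the cluster, from 27.7, 24.6, 25.1 and 28.4 TPM to 38.1, 38.9, 36.3 and 37.9 TPM (log2 fold change 0.50, SE 0.05, limma adjusted p = 4.4e-05). Hoxa4, Hoxa7 and Hoxa9 rose by 0.45 to 0.49 on the log2 scale with adjusted p from 0.0073 to 0.028 in limma, all at levels below 12 TPM. Hoxa4, Hoxa7 and Hoxa9 no longer passed after quantile normalization (adjusted p 0.24, 0.058 and 0.059), and Hoxa4 not after median-ratio scaling (0.059) nor without Lv-Ctrl replicate 1 (0.050), Lv-Ctrl replicate 3 (0.051), Lv-Piezo1 replicate 1 (0.065) or Lv-Piezo1 replicate 2 (0.059). Hoxa2, Hoxa3, Hoxa5 and Hoxa13 did not pass, with log2 fold changes of 0.07, 0.21, 0.22 and -0.18. Hoxa13, the terminal gene of limb tips and urogenital tract, had 1 low Lv-Ctrl sample at 4.58 TPM. Without that sample, Lv-Ctrl replicate 3, its log2 fold change was -0.32 with a limma adjusted p of 0.0023. Hoxa13 also passed as lower after median-ratio scaling (-0.32, limma adjusted p = 0.043) and quantile normalization (-0.37, adjusted p = 0.014).

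In the Hoxb cluster Hoxb2, Hoxb4 and Hoxb5 of 9 tested genes rose (33.3%, against 41.9% of all genes), while Hoxb9 and Hoxb13 fell (22.2%, against 16.3%). Hoxb4, a gene of the cervical level also known from blood stem cells, showed the largest rise of any tested HOX gene that passed, from 2.80, 3.5, 4.36 and 4.08 TPM to 7.98, 7.11, 6.90 and 7.37 TPM (log2 fold change 0.84, SE 0.11, limma adjusted p = 1.7e-04). Its level was thus 1.99-fold higher, and the groups were separate. Hoxb2, a gene of hindbrain and neck, was the second most abundant of the cluster over the 8 samples and went from 15.4, 15.7, 15.8 and 16.4 TPM to 21.1, 19.8, 18.2 and 20.5 TPM (log2 fold change 0.31, SE 0.05, limma adjusted p = 8.7e-04). Hoxb5 rose by 0.44 (adjusted p = 0.0065 in limma, 0.12 after quantile normalization), while Hoxb3, Hoxb6, Hoxb7 and Hoxb8 had log2 fold changes of 0.05, -0.11, -0.17 and -0.14 and did not pass. Hoxb6 passed as lower without Lv-Piezo1 replicate 3 (log2 fold change -0.20, limma adjusted p = 0.033). After median-ratio scaling and quantile normalization Hoxb6 (adjusted p = 0.040 and 0.027 in limma) and Hoxb7 (0.046 and 0.034) passed as lower, and Hoxb3 changed sign without passing (-0.10 and -0.13). Hoxb9 over Hoxb4 went from 10.3 ± 2.78 to 1.97 ± 0.193.

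In the Hoxc cluster 1 of 8 tested genes passed (12.5%, against 58.2% of all genes). This was Hoxc6, a gene of the lower neck and upper chest, at 5.36, 4.06, 4.91 and 4.98 TPM against 6.45, 5.56, 6.15 and 7.27 TPM (log2 fold change 0.34, SE 0.10, limma adjusted p = 0.014). The groups were separate but close, and the gene did not pass after median-ratio scaling (adjusted p = 0.10) or quantile normalization (adjusted p = 0.24). Hoxc12, the most abundant of the cluster, was at 41.5, 44.8, 37.6 and 38.5 TPM in Lv-Ctrl and at 42.4, 39.7, 43.0 and 42.1 TPM in Lv-Piezo1. Its interval for the log2 fold change ran from -0.09 to 0.18 (95%, limma adjusted p = 0.53). Hoxc11 was at 26.4, 22.4, 25.6 and 23.1 TPM and at 27.2, 27.1, 25.8 and 26.3 TPM, again with overlapping groups (log2 fold change 0.12, SE 0.06, limma adjusted p = 0.093, and 0.16 with adjusted p = 0.036 without Lv-Ctrl replicate 1). Hoxc13, the gene of hair and nail in the terminal position, had a log2 fold change of 0.12 with a 95% interval from 0.00 to 0.23 (limma adjusted p = 0.079, and 0.033 without Lv-Piezo1 replicate 3). Hoxc9 was at 0.24 (adjusted p = 0.077 in limma, and 0.042 without Lv-Piezo1 replicate 4), and Hoxc4, Hoxc8 and Hoxc10 at 0.11, -0.05 and 0.11. Hoxc10, Hoxc11, Hoxc12 and Hoxc13 changed sign, to between -0.11 and -0.01, after median-ratio scaling and quantile normalization.

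In the Hoxd cluster 2 of 6 tested genes fell (33.3%, against 16.3% of all genes) and none rose (41.9% of all genes), and 1 of the 2 was tested only through its Lv-Ctrl level. Hoxd13, the terminal gene of the cluster, needed for digits and the genital tubercle, was at 3.33, 2.87, 2.62 and 2.66 TPM in Lv-Ctrl and at 1.20, 0.65, 0.94 and 1.14 TPM in Lv-Piezo1, with no overlap (2.92-fold lower mean, log2 fold change -0.97, SE 0.12, limma adjusted p = 1.4e-04). The gene reached the minimum of 1 TPM only through Lv-Ctrl, where it is high, as its mean in Lv-Piezo1 was 0.982 TPM. On this scale the value sits just short of the fold threshold. Over the alternatives that tested the gene it lay between -1.48 and -0.88, the largest size being with a pseudocount of 0.1. A minimum of 5 TPM left the gene out. Hoxd8, a trunk gene, went from 9.65, 9.28, 9.24 and 10.8 TPM to 7.61, 7.04, 7.94 and 7.51 TPM (log2 fold change -0.33, SE 0.06, limma adjusted p = 0.0018). The most abundant gene, Hoxd9, was at 11.2, 13.4, 14.1 and 12.9 TPM and at 12.1, 12.5, 13.3 and 12.9 TPM, and Hoxd10 at 10.3, 9.69, 9.43 and 8.91 TPM and at 10.9, 8.40, 9.19 and 11.1 TPM. Both overlapped, with 95% intervals for the log2 fold change of -0.18 to 0.14 and -0.17 to 0.24. Hoxd11 had a log2 fold change of 0.02. Hoxd4 varied within each group, at 3.98, 1.06, 1.73 and 1.69 TPM in Lv-Ctrl and at 7.07, 6.99, 2.65 and 1.6 TPM in Lv-Piezo1. Its log2 fold change of 0.76 (SE 0.41, limma adjusted p = 0.14) rests on 2 high Lv-Piezo1 samples, and without Lv-Piezo1 replicate 4 it was 1.07 with an adjusted p of 0.040. Hoxd8 and Hoxd4 were given by sample after their values were seen.

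**Figure D3:**
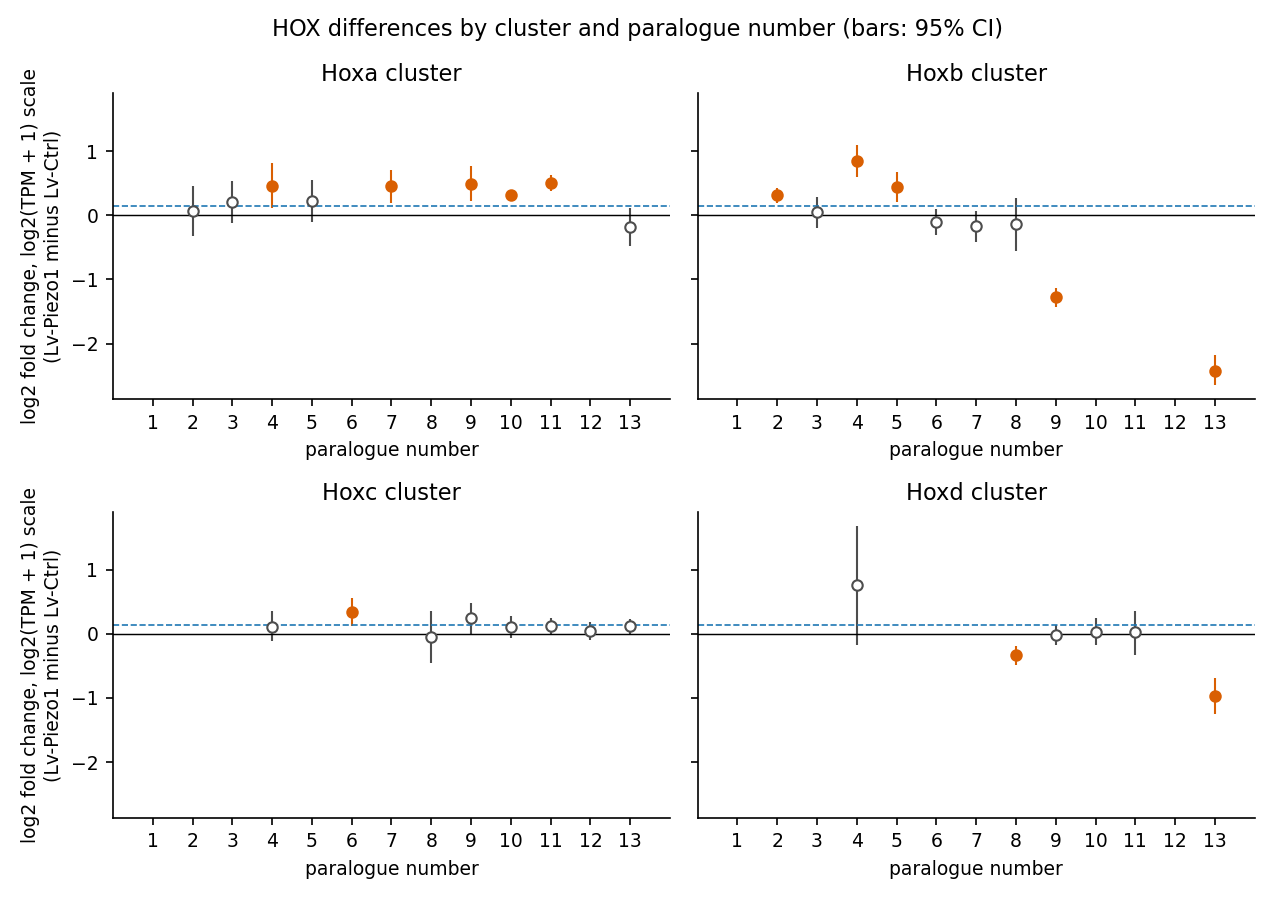
Log2 fold change (Lv-Piezo1 against Lv-Ctrl, log2(TPM + 1) scale, with 95% interval) of the tested HOX genes reported here against paralogue number in the 4 clusters. Filled orange points had an adjusted p below 0.05, and the dashed line is the median of all genes tested, 0.14. The filled points lie above 0 in Hoxa, fall from Hoxb4 to Hoxb13 in Hoxb and lie below 0 in Hoxd.

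Read by paralogue number, some numbers held genes of different outcome, which was described and not tested. Among the number 13 genes Hoxb13 fell, as did Hoxd13 with the limit given above, while Hoxa13 and Hoxc13 did not pass, and the ratio of Hoxb13 to Hoxc13 went from 2.00 ± 0.166 to 0.282 ± 0.0613 and that to Hoxa13 from 3.63 ± 1.01 to 0.624 ± 0.111. Hoxb13 was thus the most abundant number 13 gene in Lv-Ctrl, and Hoxc13 (12.6 ± 0.703 TPM) in Lv-Piezo1. Among the number 9 genes Hoxb9 fell and Hoxa9 rose, and Hoxb9 over Hoxa9 went from 5.76 ± 1.11 to 1.54 ± 0.195 and Hoxb9 over Hoxd9 from 2.86 ± 0.459 to 1.14 ± 0.0783. For each of these ratios the groups did not overlap. Among the number 4 genes Hoxb4 rose, as did Hoxa4 with the limit given above, and the 4 together had 9.64 ± 0.883 TPM in Lv-Ctrl and 16.8 ± 2.93 TPM in Lv-Piezo1.

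The summed TPM of all HOX genes was 389 ± 8.17 in Lv-Ctrl and 392 ± 6.09 in Lv-Piezo1, with overlapping groups, but after median-ratio scaling, added after the data were seen, it was 411 ± 12.9 and 370.1 ± 7.29, lower in every Lv-Piezo1 sample (log2 ratio -0.15). Its make-up also differed. Hoxa genes summed to 114, 105, 102 and 118 TPM in Lv-Ctrl and to 141, 138, 142 and 143 TPM in Lv-Piezo1. Hoxb genes summed to 134, 132, 132 and 119 TPM and to 94.9, 91.4, 93.3 and 93.7 TPM. The Hoxb share of all HOX TPM thus went from 33.2% ± 1.55 to 23.8% ± 0.0280 and the Hoxa share from between 26.4% and 30.7% to between 35.4% and 36.3%. Without Hoxb9 and Hoxb13 the other Hoxb genes summed to 69.7 ± 2.77 and 75.4 ± 1.46 TPM, a difference that did not keep its sign after median-ratio scaling. The Hoxc sum was 109.8 ± 1.49 and 119 ± 2.31 TPM, a difference that changed sign after median-ratio scaling (log2 ratio -0.05), and the Hoxd sum, 40.4 ± 1.35 and 38.9 ± 2.31 TPM, overlapped in TPM but not after median-ratio scaling (log2 ratio -0.22). Number 13 genes held 11.3% ± 0.436 of HOX TPM in Lv-Ctrl and 5.80% ± 0.126 in Lv-Piezo1, and paralogues 9 to 13 together 72.2% ± 0.196 and 69.2% ± 0.254. These sums are descriptions and were not tested.

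**Figure D4:**
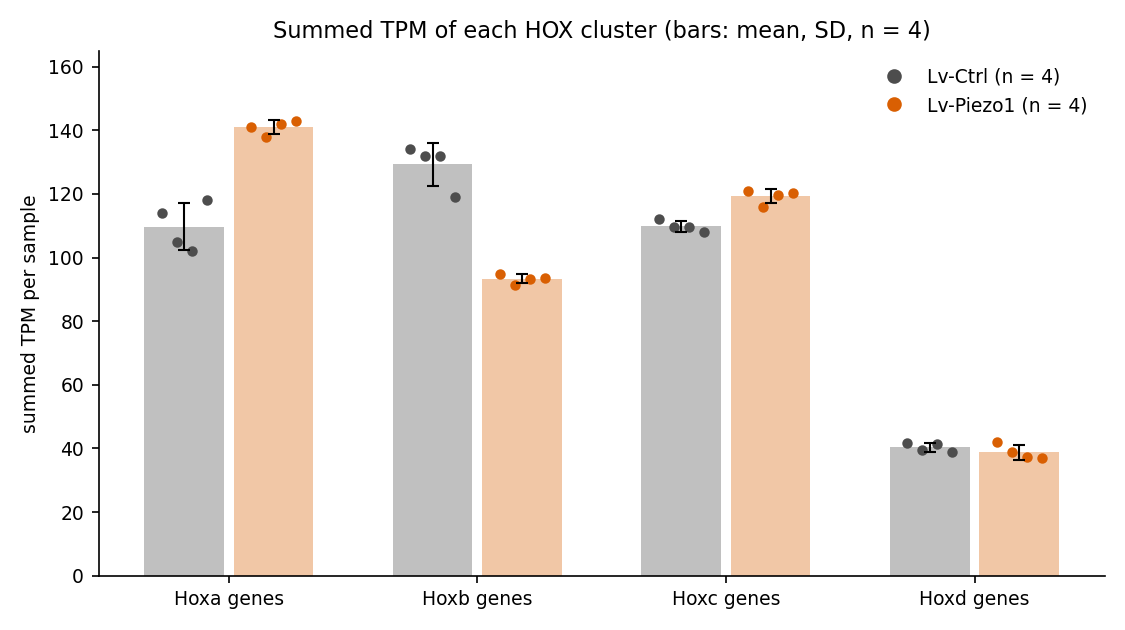
Summed TPM of the HOX genes of each cluster per sample (points), with the group mean as a bar from 0 and the SD, for Lv-Ctrl (grey) and Lv-Piezo1 (orange). The Hoxa sums lie higher in Lv-Piezo1 and the Hoxb sums lower, while the Hoxd sums overlap in TPM.

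Transcripts of the proteins that bind DNA with HOX factors moved both ways. Of the 7 tested members of the list (PBX, MEIS and PKNOX genes, 9 in all), 4 fell and 2 rose (57.1% and 28.6%, against 16.3% and 41.9% of all genes), none of them higher after either scaling, with a median log2 fold change of -0.31. Both members under the minimum, Pbx4 (0.395 ± 0.189 against 1.13 ± 0.294 TPM) and Pknox2 (0.0550 ± 0.0551 against 0.435 ± 0.0995 TPM), lay higher in Lv-Piezo1 with separate groups, and without a minimum 4 cofactors fell and 4 rose. Meis2 was called, at 18.3, 17.9, 14.5 and 16.1 TPM in Lv-Ctrl and 6.30, 5.79, 6.50 and 7.27 TPM in Lv-Piezo1 (log2 fold change -1.24, SE 0.09, limma adjusted p = 3.0e-06). Meis1, the most abundant, was at 47.7, 44.7, 41.1 and 42.9 TPM and at 24.8, 24.2, 26.9 and 26.9 TPM (log2 fold change -0.76, SE 0.06, limma adjusted p = 4.9e-06). The groups were separate for both genes. Pbx3 and Meis3 fell by 0.52 and 0.31 on the log2 scale. Pbx2, the second most abundant, was at 29.5, 28.6, 28.6 and 29.2 TPM and at 26.2, 26.4, 28.7 and 25.7 TPM (log2 fold change -0.11, limma adjusted p = 0.051), and it passed as lower after median-ratio scaling (-0.27, adjusted p = 0.0011) and quantile normalization (-0.24, adjusted p = 0.0015). Pknox1 rose by 0.22, near the median of all genes, and passed neither after median-ratio scaling nor after quantile normalization.

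Among the chromatin regulators of HOX clusters no gene was called, against 7.67% of all genes tested. Of 28 Polycomb genes 16 rose and none fell (57.1% higher, against 41.9% of all genes, median log2 fold change 0.20). The most abundant, Rbbp7, a histone-binding subunit, went from 113 ± 2.01 to 141 ± 6.53 TPM (log2 fold change 0.31, limma adjusted p = 1.0e-04), and Rbbp4, its close relative, from 55.5 ± 1.47 to 58.5 ± 2.51 TPM (0.07, adjusted p = 0.14). The largest rise was that of Ring1, a ubiquitin ligase of Polycomb repressive complex PRC1, from 21.7 ± 1.09 to 39.6 ± 1.39 TPM (log2 fold change 0.84, limma adjusted p = 7.3e-07), and Ezh2, a histone methyltransferase, was at 4.02 ± 0.355 and 6.49 ± 0.449 TPM (0.58, adjusted p = 1.7e-04). After median-ratio scaling 9 Polycomb genes were higher and 3 lower, and after quantile normalization 9 and 5. The share higher was then 32.1%, near that of all genes, which was 27.9% higher and 27.9% lower after median-ratio scaling and 28.7% and 27.3% after quantile normalization. Of 13 Trithorax genes and histone demethylases 7 rose (53.8%, against 41.9% of all genes) and none fell, with a median of 0.20 (4 rose after either scaling, 30.8%). The most abundant, Psip1 and Men1, did not pass (0.12 and 0.09).

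Among 9 tested genes of retinoic acid metabolism and signalling 5 rose (55.6%, against 41.9% of all genes) and 2 fell (22.2%, against 16.3%). Crabp1, a cytoplasmic retinoic acid binding protein, was called: it was at 0.13, 0.33, 0.33 and 0 TPM in Lv-Ctrl and at 8.28, 10.3, 8.75 and 8.91 TPM in Lv-Piezo1 (log2 fold change 3.08, limma adjusted p = 7.9e-08), and so passed the minimum only through Lv-Piezo1. The receptor Rarg rose from 45.4 ± 1.78 to 52.5 ± 0.828 TPM (0.21, limma adjusted p = 0.0012). It did not pass after median-ratio scaling (adjusted p = 0.33) but did after quantile normalization (0.10, adjusted p = 0.036). Dhrs3, which converts retinaldehyde back to retinol, fell from 51.4 ± 3.00 to 37.4 ± 1.41 TPM (-0.45, adjusted p = 5.6e-05). Cyp26b1, which degrades retinoic acid, also fell (-0.48, adjusted p = 0.0018).

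The other genes of axial and limb position moved both ways, with 9 of 23 tested members higher (39.1%, against 41.9% of all genes) and 9 lower (39.1%, against 16.3%). Among the lower genes Uncx (1.97 ± 0.0933 against 0.493 ± 0.122 TPM) was tested only through its Lv-Ctrl level. The split was 6 higher and 11 lower (26.1% and 47.8%) after median-ratio scaling and 6 and 12 (26.1% and 52.2%) after quantile normalization, against the shares of all genes under these scalings given above. Shox2, a homeobox gene of proximal limb, palate and sinus node, was called lower, from 19.2, 18.8, 17.5 and 18.9 TPM to 2.56, 3.77, 3.56 and 2.80 TPM (5.86-fold, log2 fold change -2.24, limma adjusted p = 1.5e-07). En1, a homeobox gene of midbrain, ventral limb and dorsal skin fibroblasts, was called higher, from 3.38, 2.99, 2.20 and 2.34 TPM to 9.22, 10.7, 9.93 and 8.78 TPM (log2 fold change 1.52, limma adjusted p = 4.4e-06). Both had separate groups. The most abundant, Prrx2, a homeobox gene of limb and face mesenchyme, was at 361 to 405 TPM in Lv-Ctrl and fell to between 314 and 345 TPM in Lv-Piezo1 (-0.23, adjusted p = 0.0020), and Prrx1 overlapped (141 ± 26.8 and 135 ± 11.8 TPM). Gdf11, the secreted factor that sets the onset of the posterior HOX genes in the embryo, fell from 21.7 ± 2.02 to 15.1 ± 0.823 TPM (-0.49, adjusted p = 3.3e-04). Of 9 tested genes in or next to the clusters 5 rose (55.6%, against 41.9% of all genes) and none fell. With 1 sample left out, 3 rose without Lv-Ctrl replicate 4 or without Lv-Piezo1 replicate 1, 3 or 4. After median-ratio scaling 1 was higher and 1 lower (11.1% each, against 27.9% each of all genes). After quantile normalization 2 were higher and 1 lower (22.2% and 11.1%, against 28.7% and 27.3%). The most abundant genes of this list, Copz1 and Calcoco1 beside the Hoxc cluster, rose by 0.17 and 0.18 (limma adjusted p = 0.011 and 0.029), which is close to the median of all genes. Neither passed after median-ratio scaling. After quantile normalization Copz1 passed (0.16, limma adjusted p = 0.012) and Calcoco1 did not (0.11, adjusted p = 0.11). In these lists Ring1, Ezh2, Pbx3, Pbx4, Pknox2, Meis3, Pknox1, Cyp26b1, Gdf11 and Uncx were named after their values were seen.

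**Figure D5:**
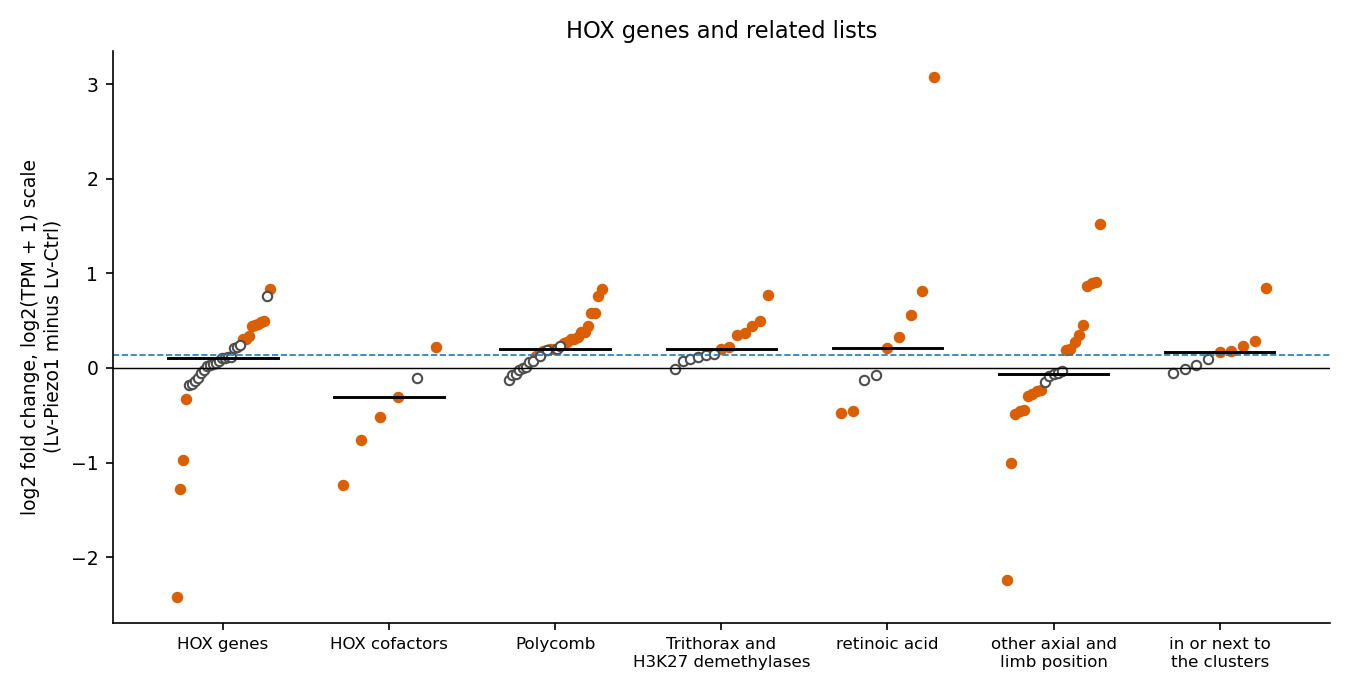
Log2 fold change (Lv-Piezo1 against Lv-Ctrl, log2(TPM + 1) scale) of the tested genes reported here, in the HOX group and 6 related lists. Filled orange points had an adjusted p below 0.05, black bars are medians of the whole lists and the dashed line is the median of all genes tested, 0.14. The cofactor median lies at -0.31, and Crabp1, En1, Shox2, Meis2, Hoxb9 and Hoxb13 lie beyond 1 in size.

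Markers of other cells were read in the same samples. Of the fibrous markers 15 of 16 were tested and their sum was 31342 ± 2025 TPM in Lv-Ctrl and 34110.1 ± 1243 TPM in Lv-Piezo1, led by Sparc, while the tendon gene Tnmd was at or near 0. Within that sum 8 genes rose and 6 fell (93.3%, against 58.2% of all genes), and 4 were called (26.7%, against 7.67%). Of these 4, Fbln1 and Dcn, matrix proteins, had 3.97-fold and 2.81-fold lower means, and Postn and Fn1, also of the matrix, 2.92-fold and 2.53-fold higher means. The part of these matrix genes in the HOX differences was not tested. Of 9 tested smooth muscle and pericyte markers 7 rose (77.8%, against 41.9% of all genes) and 2 fell (22.2%, against 16.3%), and 8 were called (88.9%, against 7.67%). Their sum was 753, 743, 727 and 732 TPM in Lv-Ctrl and 4582, 4656, 4650.2 and 4483 TPM in Lv-Piezo1, with Tagln the most abundant (219 ± 4.64 against 2730.2 ± 41.2 TPM), Acta2 at 51.2 ± 2.27 against 1344 ± 40.5 TPM, and Kcnj8, a pericyte channel, lower at 326 ± 5.61 against 39.1 ± 2.61 TPM. No defining marker of that list was at 0 in every sample. The part of these contractile and pericyte genes in the HOX differences was not tested. Defining markers of notochord (Tbxt, Shh and Noto), skeletal muscle (Myod1, Myf5, Pax7 and Myog), neural cells (Sox10 and Rbfox3) and epithelium (Cdh1 and Krt5) were listed at 0 in all samples, endothelial markers summed to below 1 TPM in every sample, and the leukocyte gene Ptprc was at or near 0. Of the skeletal muscle list Ckm, the muscle creatine kinase and its only tested gene, was at 1.93, 13.99, 1.38 and 1.31 TPM in Lv-Ctrl and at 2.18, 1.65, 1.89 and 1.19 TPM in Lv-Piezo1. Lv-Ctrl replicate 2 thus stood apart, and the groups overlapped (limma adjusted p = 0.42). Actn2, a sarcomere protein, was at 0.145 ± 0.0420 and 0.872 ± 0.227 TPM and was not tested. Both tested genes of the macrophage and blood list rose, with Cd68, a lysosomal protein, at 0.955 ± 0.899 and 12.3 ± 0.901 TPM (log2 fold change 2.88, limma adjusted p = 2.7e-05), tested only through its Lv-Piezo1 level, and Cd14 at 20.9 ± 0.324 and 25.8 ± 1.91 TPM, which did not pass after median-ratio scaling (adjusted p = 0.12) or quantile normalization (0.078). Of the tested neural genes S100b fell from 328 ± 5.39 to 141 ± 4.47 TPM and Tubb3, a tubulin, rose from 3.34 ± 0.327 to 9.54 ± 0.408 TPM. In the notochord list Cd24, which other cells also express, rose from 3.79 ± 0.207 to 21.9 ± 1.91 TPM. Of 6 tested chondrocyte markers 4 rose (66.7%, against 41.9% of all genes) and 1 fell (16.7%, against 16.3%). One of the 4, the matrix protein Comp (0.738 ± 0.216 against 2.86 ± 0.221 TPM), was tested only through its Lv-Piezo1 level. The list, led by Col11a1, summed to 164 ± 19.3 and 237 ± 18.9 TPM. Among the markers Cd68, Tubb3, Ckm, Actn2, Comp, Fbln1, Dcn, Postn and Fn1 were named after their values were seen.

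The median of all genes tested was shifted by 0.14 toward Lv-Piezo1 in TPM and by less than 0.01 in size after median-ratio scaling or quantile normalization. Relative to it, Hoxa10 and Hoxb2 were 0.15 and 0.16 higher after median-ratio scaling. The strand setting of the counting is not given in the sources used here, and in RefSeq Hoxa3 overlaps Hoxa4, Hoxa5 and Hoxa6, Hoxc6 overlaps Hoxc4 and Hoxc5, Hoxb5 and Hoxb6 overlap the antisense gene Hoxb5os, and Hoxd4 overlaps Mir10b, so reads of these genes may be split or shared. Hoxb9, Hoxb13, Hoxd13 and Hoxd8 have no such overlap.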

How the data were processed

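RNA-seq of 8 cultures (4 Lv-Ctrl, 4 Lv-Piezo1) was read from the table of TPM values per gene that the authors deposited. The study names HISAT2 and StringTie, and the submitters' processing notes name mm10, a mouse build, and DESeq2, while the table holds rat genes, so the build is uncertain. TPM keeps no depth, so the depth per sample is unknown and no counting error is given. The HOX genes were taken by name. The members and lists were chosen with earlier results of these data known. Genes with a mean of at least 1 TPM (13103) were tested with limma 3.58.1 in R 4.3.3 on log2(TPM + 1), with a trend in the variance and Benjamini-Hochberg adjustment over all of them. Called means an adjusted p below 0.05 with a log2 fold change of 1 or more in size, and rose, fell or passed mean an adjusted p below 0.05. The fit was tested on simulated data. Values by sample are given for called HOX genes, the 2 most abundant of each cluster and its largest rise and fall, and in related lists for called genes, with means for the 2 most abundant. Alternatives were the pseudocount, filter, scaling, variance moderation, a replicate block and leaving out each sample. Some single genes are counted but not reported by name here. Promoters are from RefSeq.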

Additional observations from a re-analysis of the deposited data

Results flagged for a closer look

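In 3 of the 68 sets of 4 samples examined (the 33 tested HOX genes and Piezo1, in 2 groups), 1 sample stood apart from the other 3, where chance alone gives about 1 in 20. Lv-Ctrl replicate 3 was lowest for Hoxa13, at 4.58 TPM with the nearest sample at 7.27 TPM, and for Hoxc8, at 0.67 TPM with the nearest at 1.11 TPM. Lv-Ctrl replicate 2 was highest for Hoxb5, at 1.52 TPM with the nearest at 1.34 TPM.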

How the results depend on the processing

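Hoxb13, Hoxb9, Hoxd13, Hoxd8, Hoxb4, Hoxb2, Hoxa10 and Hoxa11 kept their direction and an adjusted p below 0.05 in limma in every alternative that tested them. HOX genes called numbered 2 to 4 when 1 sample was left out, with 4 without Lv-Piezo1 replicate 4 (Hoxd4 and Hoxd13 joined), and 3 after median-ratio scaling. Scaling moved the split of directions: of called genes 64.1% were higher in TPM, 52.3% with median-ratio scaling and 48.8% with quantile normalization. At an adjusted p below 0.05, 3657 genes were higher and 3651 lower after median-ratio scaling, and 3579 lower after quantile normalization. Among HOX genes 7 were then lower after either scaling (Hoxa13, Hoxb6 and Hoxb7 joined) and 4 higher after quantile normalization. A minimum of 5 TPM gave 628 called genes, 372 of them higher, and 6 HOX genes higher, since fewer genes were tested.

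The log2 ratios of the sums after median-ratio scaling were 0.20 for Hoxa, -0.63 for Hoxb, -0.05 for Hoxc and -0.22 for Hoxd, -0.15 for all HOX genes (0.01 in TPM), and 0.06, -0.04 and -0.21 for paralogues 1 to 3, 4 to 8 and 9 to 13. Genes that had not passed changed sign under the 2 scalings (median-ratio first, quantile next): Hoxa2 (-0.02 and -0.16), Hoxb3 (-0.10 and -0.13), Hoxc4 (-0.01 and -0.10), Hoxc10 (-0.05 and -0.05), Hoxc12 (-0.11 and -0.07), Hoxd10 (-0.11 and -0.15) and Hoxd11 (-0.10 and -0.20), as did Hoxc11 (-0.03 and -0.01) and Hoxc13 (-0.03 and -0.06). With 1 sample left out, values crossed 0 for Hoxa2 (-0.08 to 0.17), Hoxb3 (-0.04 to 0.12), Hoxb8 (-0.22 to 0.04), Hoxc8 (-0.16 to 0.06), Hoxd9 (-0.08 to 0.02), Hoxd10 (-0.02 to 0.10) and Hoxd11 (-0.11 to 0.13). Among cofactors no gene was higher after either scaling, and among genes next to the clusters 1 and 2 were higher.

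Same-numbered samples did not deviate together (r from -0.058 to -0.012 over the tested genes), so the numbers gave no sign of pairing. This cannot show that the samples were unpaired, since the study's text allows a match by isolation. With the replicate block 1004 genes were called, and 8 HOX genes were higher and 5 lower. Hoxa4 (adjusted p = 0.052) was among those that no longer passed, while Hoxb7 did (0.037). The causes of these changes were not tested. Without depth, the counting error of genes near 1 TPM, such as Hoxa4, Hoxc8 and Hoxd13, is unknown.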
